A study of Mus musculus with 2 samples.

Results

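The Nodal and BMP signalling genes *Nodal*, *Lefty1*, *Lefty2*, *Tdgf1*, *Smad7*, *Bmp4*, *Id1*, *Id2* and *Id3* were followed in single mouse embryonic stem (ES) cells with and without *Lin28a*. They were taken by name, and all 9 were among the 54146 gene identifiers of the files. Single cells were profiled by inDrop, a droplet method that tags the 3′ end of each captured transcript with a unique molecular identifier (UMI). There were 2 libraries, 1 per group: wild-type clone a2.1 and *Lin28a* knockout clone a3.5, each a single clone of E14 ES cells, the latter made by CRISPR/Cas9 with a guide to exon 2 and the former a transfected clone as well, not the untransfected parent line. The first was labelled untreated, and the second carries the knockout as its only treatment label. Both were grown on mouse embryonic fibroblast (MEF) feeder cells in serum-free N2/B27 medium with LIF and 2i, which is a MEK inhibitor (PD0325901) and a GSK3 inhibitor (CHIR99021). The files give the raw UMI counts of 4329 wild-type and 6060 knockout barcodes. Of these, 1856 wild-type and 1622 knockout barcodes had at least 500 UMIs and at most 20% of them from mitochondrial genes. Feeder fibroblasts were set apart as cells with at least 0.3% of UMIs on *Col1a1*, *Col1a2* and *Col3a1*, which left 1808 wild-type and 1599 knockout ES cells beside 48 and 23 fibroblasts. The knockout was made in the ES clone, and the genotype of the feeders is not stated. Wild-type or knockout fibroblasts below are therefore named only by the library they came from.

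Nodal is a secreted ligand of the TGF-beta family. With its co-receptor Cripto, the product of *Tdgf1*, it binds Activin receptors and activates Smad2 and Smad3, which act in the nucleus with Smad4 and Foxh1. *Lefty1* and *Lefty2* are targets of this signal and encode secreted inhibitors of it, while Smad7 blocks the receptors inside the cell. Bmp4 signals through other receptors to Smad1 and Smad5, whose best known targets in ES cells are *Id1*, *Id2* and *Id3*. Id proteins bind E proteins and keep them from DNA, and BMP with LIF can hold mouse ES cells in the undifferentiated state without serum.

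The genes lie on 8 chromosomes of GRCm38, and all are annotated as protein-coding. *Nodal* (ENSMUSG00000037171.6) spans chr10:61417972-61425338 on the plus strand, and *Tdgf1* (ENSMUSG00000032494.12) spans chr9:110939603-110946158 on the minus strand. *Lefty1* (ENSMUSG00000038793.8, chr1:180935022-180938400) and *Lefty2* (ENSMUSG00000066652.5, chr1:180893108-180899103) are neighbours on the plus strand of the same chromosome with 35918 bases between them. *Bmp4* (ENSMUSG00000021835.15) is at chr14:46383520-46390669 on the minus strand. *Id1* (ENSMUSG00000042745.9, chr2:152736251-152737410, plus), *Id2* (ENSMUSG00000020644.9, chr12:25093799-25097140, minus) and *Id3* (ENSMUSG00000007872.3, chr4:136143497-136145755, plus) are spread over 3 chromosomes.

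Lin28 proteins block the maturation of let-7 microRNAs, and ES cells make large amounts of the miR-290 and miR-302 families, so the seed matches to both were read from the 3′ UTRs. The microRNAs are shown 5′ to 3′ with the seed, bases 2 to 8, in capitals (RefSeq, GRCm38.p6). The let-7a seed is shared by 11 mature mouse microRNAs of the table and the miR-294 seed by 5, miR-291a-3p, miR-294-3p, miR-295-3p, miR-302b-3p and miR-302d-3p.
mmu-let-7a-5p: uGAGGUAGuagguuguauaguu
mmu-miR-294-3p: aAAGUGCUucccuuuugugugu

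Taking for each gene the protein-coding transcript with the longest 3′ UTR (GENCODE M21), 9.18% of 20676 UTRs held the letters complementary to the let-7 seed (CTACCTC). None of the 9 UTRs, which were 339 to 1570 bases long, held them. The complement of the miR-294 seed (AGCACTT) was in 14.9% of all UTRs and, among the 9 genes, in those of *Lefty1* and *Lefty2*, once in each. The site of *Lefty1* was at chr1:180938213-180938219, from base 238 of its 425-base UTR, and that of *Lefty2* at chr1:180897917-180897923, from base 104 of 1290. Both are shown with their flanks as DNA of the transcribed sense, the match in capitals, because the 2 inhibitors share it and the other 7 genes lack it.
Lefty1 site: actgtatgcgaAGCACTTacatgtataga
Lefty2 site: cacccagtttaAGCACTTacatgggtaaa

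The 5 bases that follow the match are also the same in both. A match is only a stretch of letters, and neither the microRNAs nor their binding was measured in these libraries. The study assayed let-7 by qRT-PCR in both clones, and those values were not used here.

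Promoters, stretches of 300 bases around the start of transcription, were in the RefSeq table for 5 of the 9 genes (GRCm38.p6). Those of *Id2* and *Id3* are shown because the *Id* genes stood highest over ES cells in wild-type fibroblasts. Capitals mark the letters of the general Smad motif (CAGAC) and of the GC-rich Smad motif (GGCGCC), searched on both strands. The *Id2* promoter, chr12:25096043-25096342 on the minus strand, held 1 GC-rich match, and the *Id3* promoter, chr4:136143572-136143871 on the plus strand, held 2 general ones. Both stretches lie inside the gene spans given above, so they follow a start of transcription downstream of the 5′ end of those spans. *Tdgf1* had 1 general match, and *Nodal* and *Bmp4* had 0 of either. Of all 32851 promoters 49.6% held the general and 11.9% the GC-rich motif, so such matches are frequent.
Id2 promoter: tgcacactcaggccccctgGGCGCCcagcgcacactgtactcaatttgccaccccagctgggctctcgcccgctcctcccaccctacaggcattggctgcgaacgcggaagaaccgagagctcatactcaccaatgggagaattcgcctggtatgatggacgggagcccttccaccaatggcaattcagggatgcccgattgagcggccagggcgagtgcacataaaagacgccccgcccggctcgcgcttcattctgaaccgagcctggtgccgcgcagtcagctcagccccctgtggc
Id3 promoter: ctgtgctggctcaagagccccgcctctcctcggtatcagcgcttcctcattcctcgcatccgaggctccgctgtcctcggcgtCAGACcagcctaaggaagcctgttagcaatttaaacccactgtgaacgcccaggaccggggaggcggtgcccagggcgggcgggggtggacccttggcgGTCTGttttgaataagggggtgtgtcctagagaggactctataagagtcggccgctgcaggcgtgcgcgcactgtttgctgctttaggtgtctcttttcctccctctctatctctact

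The cells carried the marks of ES cells. Summed over 11 pluripotency factors, among them the core factors *Pou5f1* and *Sox2*, which primed epiblast expresses as well, and the naive factor *Zfp42*, ES cells held 4905 CPM (UMIs per 1000000 counted) in wild-type and 4890 CPM in knockout cells, against 1145 and 1103 CPM in fibroblasts. *Klf4* alone made up 759.9 and 452 CPM of the fibroblast sums, so it does not set the cell types apart. The like sums of the ES cells cover members that differed, with knockout over wild-type ratios of 0.568 (0.523 to 0.616) for *Sox2*, 0.768 (0.741 to 0.795) for *Zfp42* and 1.18 (1.15 to 1.21) for *Pou5f1*. Markers of primed epiblast (6 genes, 116 and 85.0 CPM), primitive endoderm (8, 26.6 and 34.9 CPM), primitive streak and mesoderm (5, 14.1 and 9.76 CPM, with *Mesp1* at 0 in both) and trophectoderm (4, 6.69 and 6.50 CPM, with *Hand1* at 0 in the wild type) were far lower. A list of 12 fibroblast genes other than the 3 collagens stood at 745 and 741 CPM in ES cells and at 16493 and 14923 CPM in fibroblasts. Most of the ES cell sums came from *Fn1* (389 and 378 CPM) and *Sparc* (262 and 273 CPM). ES cells had a median depth of 6112 (wild type) and 5072 UMIs (knockout), and fibroblasts of 8131.5 and 2295. *Lin28a* was at 110.5 CPM in wild-type and 36.9 CPM in knockout ES cells, but its 3′ tags lie outside the targeted exon, so this level checks the label only in part. Barcodes are numbered in each file and not spelled out, so barcodes shared by the libraries could not be counted. With 1 library per group no test was made, intervals are 95% and cover counting error only, and the genotype cannot be told apart from any other difference between the clones or cultures.

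*Tdgf1*, the co-receptor, was the most counted of the 9 genes in ES cells, with 3407 (wild type) and 2822 UMIs (knockout). This is 304 CPM (interval 293.9 to 314) and 306 CPM (295 to 317). A *Tdgf1* UMI was seen in 73.3% (wild type) and 56.1% (knockout) of ES cells, and in 14.1% and 11.6% when every cell was taken at 500 UMIs. Among fibroblasts, 6 of 48 in the wild-type and 3 of 23 in the knockout library had a *Tdgf1* UMI, or 20.9 and 60.8 CPM. These are 6.86% and 19.9% of the ES cell levels, and the ES cell factor *Pou5f1* stood at 5.34% and 17.0% in the same fibroblasts. The wild-type ratio depended on the collagen limit for a fibroblast. It was 0 with a limit of 1% of UMIs and 0.155 with a limit of 0.1%. In the knockout fibroblasts 5 of the 7 *Tdgf1* UMIs were in 1 cell. Where these UMIs came from was not tested.

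*Smad7*, the inhibitor inside the cell (ENSMUSG00000025880.11, plus strand of chromosome 18), had 1130 and 814 UMIs, 100.8 CPM (95.03 to 107) and 88.2 CPM (82.3 to 94.5), and was in 41.9% and 33.8% of ES cells. *Nodal*, the ligand itself, had 552 UMIs or 49.3 CPM (45.2 to 53.5) in wild-type and 678 UMIs or 73.5 CPM (68.1 to 79.2) in knockout ES cells. Of the ES cells, 24.3% (22.3 to 26.3) and 30.3% (28.0 to 32.6) had a *Nodal* UMI, and at 500 UMIs per cell 2.44% and 3.70%. Most of these cells had a single UMI, 347 of 439 (wild type) and 347 of 484 (knockout), and no cell had more than 5. Fibroblasts held 2 and 3 *Nodal* UMIs.

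*Lefty1* and *Lefty2*, the secreted inhibitors, were barely detected. *Lefty1* had 3 UMIs over 1808 wild-type ES cells and 10 over 1599 knockout ES cells, or 0.268 CPM (0.0552 to 0.782) and 1.08 CPM (0.520 to 1.99). *Lefty2* had 25 and 38 UMIs, or 2.23 CPM (1.44 to 3.29) and 4.12 CPM (2.92 to 5.65), from 21 and 29 cells. Knockout ES cells had the higher value for both, and the intervals of the libraries overlapped for both. For *Lefty2* this rested on the deep cells: 26 of the 38 knockout UMIs were in cells of at least 10000 UMIs (ratio 4.53, 1.39 to 23.4), the bin of 2000 to 5000 UMIs held 3 wild-type and 0 knockout UMIs, and with each cell weighing the same the ratio was 1.14. Knockout fibroblasts held another 2 *Lefty1* UMIs, in 2 cells, and *Lefty2* was at 0 in the fibroblasts of both libraries, where the limit of 3 counts is 6.95 CPM (wild type) and 26.1 CPM (knockout).

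On the BMP side, *Bmp4* had 580 and 511 UMIs, 51.8 CPM (47.6 to 56.1) and 55.4 CPM (50.7 to 60.4), in 23.6% and 21.5% of ES cells. *Id3* had 691 and 556 UMIs, 61.7 CPM (57.1 to 66.4) and 60.3 CPM (55.4 to 65.5). *Id1* had 162 and 158 UMIs, 14.5 CPM (12.3 to 16.9) and 17.1 CPM (14.6 to 20.01). *Id2* had 52 and 19 UMIs, 4.64 CPM (3.47 to 6.08) and 2.06 CPM (1.24 to 3.22). In both libraries the order among the *Id* genes was *Id3*, *Id1*, *Id2*, with intervals that did not overlap. A 3′ tag is counted once per transcript, so these levels are not divided by gene length, and how well each 3′ end was captured was not measured. Over all 9 genes the order was *Tdgf1*, *Smad7*, *Id3*, *Bmp4*, *Nodal*, *Id1*, *Id2*, *Lefty2*, *Lefty1* in the wild type. There the intervals of the neighbours *Bmp4* and *Nodal* overlapped and those of *Id3* and *Bmp4* did not. In the knockout library *Nodal* came after *Smad7* and before *Id3*, without overlap on either side, *Id3* and *Bmp4* overlapped, and *Lefty2* came before *Id2*, with overlap.

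**Figure D1:**
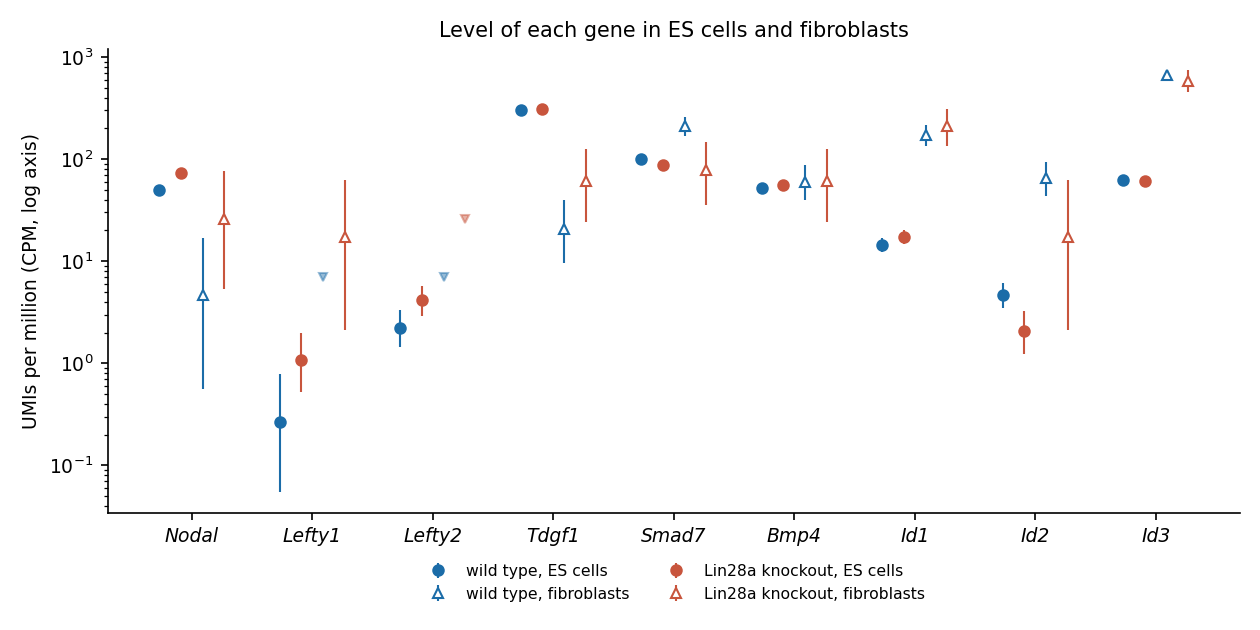
Level of each of the 9 genes in CPM (log axis) in ES cells (filled circles) and feeder fibroblasts (open triangles) of the wild-type (blue) and *Lin28a* knockout (red) library, with 95% Poisson intervals that cover counting error only. Pale downward triangles mark the limit that a count of 0 allows. *Id1* and *Id3* stand far higher in fibroblasts than in ES cells of both libraries, and *Tdgf1* lower. *Id2* stands higher in the wild type, while its knockout fibroblast value rests on 2 UMIs.

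The first comparison asked how the 9 genes differed between knockout and wild-type ES cells. *Nodal* was 1.49-fold higher in the knockout library (1.33 to 1.67), just under the 1.5-fold used as the call, and 7.16% of the genes compared had a ratio as high or higher. *Smad7* was the lower one in the knockout library, at 0.875 (0.799 to 0.959), and *Tdgf1* (1.01, 0.957 to 1.06), *Bmp4* (1.07, 0.948 to 1.21), *Id3* (0.978, 0.873 to 1.10) and *Id1* (1.18, 0.946 to 1.48) had intervals that held 1. Of the 6 genes with at least 200 UMIs, 0 were at or above 1.5-fold and 0 at or below its inverse. Over all 9643 genes with that many UMIs, 6.88% were at or above 1.5-fold and 7.89% at or below its inverse, and the median ratio was 1.02. The split between the directions moved with the scaling, from 663 and 761 genes to 490 and 971 with median of ratios scaling, where the members' counts stayed at 0. With mitochondrial and ribosomal protein genes left out of the denominator it was 738 and 680 genes. *Nodal*, at 1.515, was then at or above 1.5-fold, as it was under some other settings given at the end. The other 3 genes had too few UMIs for that count, with ratios of 4.05 (1.04 to 22.9) for *Lefty1*, 1.85 (1.09 to 3.19) for *Lefty2* and 0.444 (0.248 to 0.764) for *Id2*.

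The ratio of *Nodal* was also read within groups of cells, a view added after the data were seen. In ES cells with 5 to 10% of UMIs on ribosomal protein (RP) genes the knockout was 1.75-fold higher (1.45 to 2.11), against 1.22-fold (1.01 to 1.48) at 10 to 15% and 1.25-fold (0.985 to 1.59) at 15% or more. By depth it was 2.12-fold (0.933 to 5.62) in cells of 500 to 2000 UMIs, 1.21-fold (0.885 to 1.64) at 2000 to 5000, 1.68-fold (1.43 to 1.97) at 5000 to 10000 and 1.41-fold (1.12 to 1.79) above that. All 8 bins, including cells under 5% RP (2.30, 0.555 to 20.4), had the higher level in the knockout library. *Tdgf1*, level over all cells, was not level at each depth. Its ratio was 0.574 (0.403 to 0.824) at 500 to 2000 UMIs, 0.739 (0.628 to 0.867) at 2000 to 5000, 0.933 (0.866 to 1.004) at 5000 to 10000 and 1.21 (1.10 to 1.33) in deeper cells. In the wild-type library *Tdgf1* kept to 295 to 306 CPM over these 4 depths, and in the knockout library it went from 169 to 359 CPM. By RP share the *Tdgf1* ratio was 1.10 (1.025 to 1.18) at 5 to 10%, and the intervals of its other RP bins held 1. The knockout cells of at least 10000 UMIs had 2.12-fold the *Tdgf1* of those under 2000 (1.70 to 2.69), and 7.31% of 4158 genes had a ratio as high or higher there, with a median of 1.14. *Bmp4*, *Id1* and *Id3*, whose intervals over all cells held 1, each had 1 bin of the 8 whose interval did not. These were *Bmp4* at 2000 to 5000 UMIs (1.67, 1.17 to 2.39), *Id1* at 5000 to 10000 UMIs (1.57, 1.16 to 2.11) and *Id3* at 10 to 15% RP (0.811, 0.669 to 0.982). *Smad7*, lower over all cells, was at 2.04 (0.931 to 5.30) under 5% RP and 1.27 (0.702 to 2.44) at 500 to 2000 UMIs, with intervals that held 1. Cell by cell, with every cell weighing the same, *Tdgf1* was 0.813 in knockout over wild-type ES cells.

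**Figure D2:**
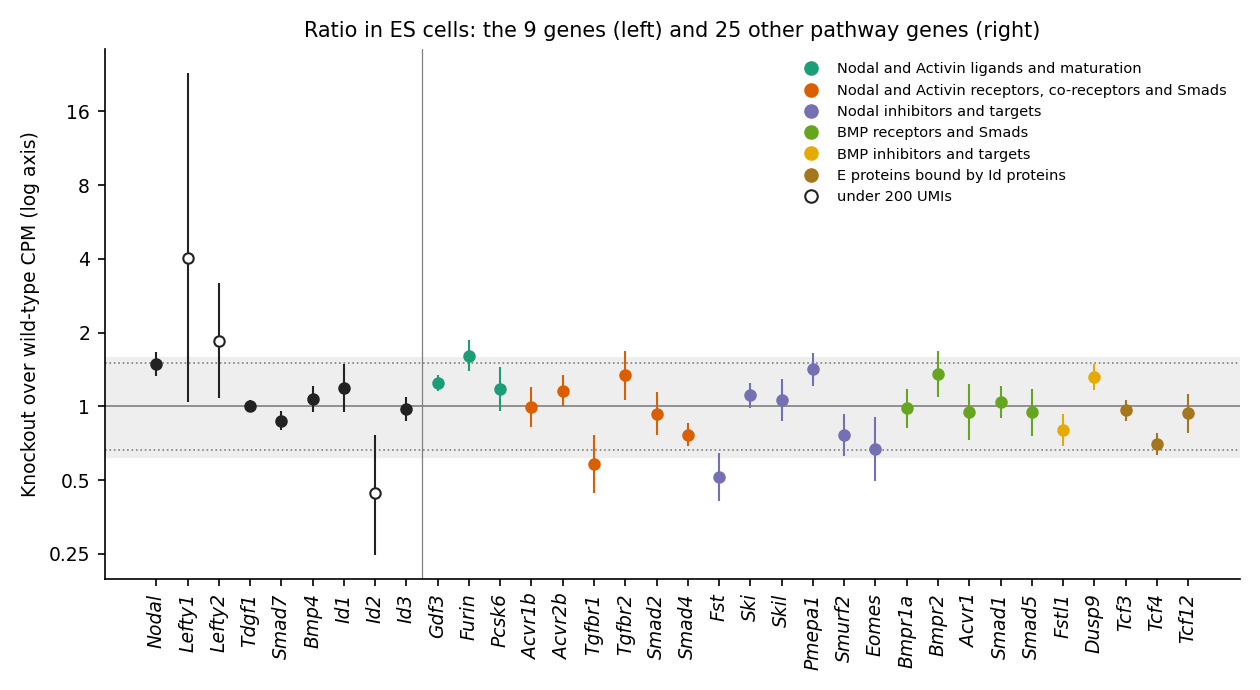
Knockout over wild-type ratio of CPM in ES cells (log axis) with 95% intervals of counting error, for the 9 genes (left) and for the 25 other pathway genes with at least 200 UMIs (right, coloured by list). Open circles had under 200 UMIs, dotted lines mark 1.5-fold and its inverse, and the grey band holds the ratios of all 9643 genes from percentile 5 to 95 (0.619 to 1.57). *Nodal* sits at 1.49, inside the band.

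The rest of both pathways was read from 7 lists with 71 other genes, of which 70 were in the files and 25 had at least 200 UMIs. Of those 25, 1 was at or above 1.5-fold, *Furin*, and 2 were at or below its inverse, *Tgfbr1* and *Fst*, shares of the same order as in all genes, and the median ratio was 0.981. *Furin*, a convertase that cleaves Nodal and other TGF-beta family precursors, went from 329 to 436 UMIs, 29.4 to 47.3 CPM, a ratio of 1.61 (1.39 to 1.86). *Gdf3*, a ligand that also uses Cripto, had 1303 and 1339 UMIs and a ratio of 1.25 (1.16 to 1.35). With *Pcsk6*, another convertase (1.18, 0.961 to 1.44), all 3 tested genes of the list of Nodal and Activin ligands and their maturation were above 1, as were 5164 of all 9643 genes. *Inhbb* (ratio 1.35, 1.01 to 1.81) and *Tgfb1* (1.02) came next in UMIs among ligands. The 8 further BMP ligands had 2 to 64 UMIs in a library, apart from *Gdf9* at 3 and 0, and none reached 200. Summed, they were at 8.30 CPM in wild-type and 14.2 CPM in knockout ES cells.

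Among receptors and Smads, *Tgfbr1*, a type I receptor for TGF-beta, had 173 and 83 UMIs and a ratio of 0.583 (0.443 to 0.762). *Smad4*, the shared partner of both branches, had 853 and 539 UMIs and a ratio of 0.768 (0.688 to 0.856). *Acvr2b*, a type II receptor, stood at 1.16 (0.9995 to 1.35) and *Smad1*, a BMP Smad, at 1.04 (0.895 to 1.21). In the list of Nodal receptors, co-receptors and Smads 2 of 6 tested genes were above 1 (median 0.964), and in that of BMP receptors and Smads 2 of 5 (0.981), beside the 5164 of 9643 genes and median of 1.02 given for all genes. *Fst*, a secreted binder of Activin, went from 268 to 114 UMIs, 23.9 to 12.4 CPM, a ratio of 0.517 (0.411 to 0.646). *Ski*, a repressor of Smad targets, had a ratio of 1.11 (0.986 to 1.25), *Dusp9*, a phosphatase of ERK that BMP signalling raises in ES cells, 1.32 (1.16 to 1.49), and *Fstl1*, a secreted BMP binder, 0.804 (0.691 to 0.935). Of the tested inhibitors and targets, 3 of 6 on the Nodal side and 1 of 2 on the BMP side were above 1. Of the 3 E proteins that Id proteins bind, *Tcf4* had a ratio of 0.705 (0.6355 to 0.781). The intervals of *Tcf3* (0.963, 0.873 to 1.06) and *Tcf12* (0.936, 0.7765 to 1.13) held 1. *Foxh1*, named after its values were seen, had 23 and 64 UMIs and a ratio of 3.38 (2.07 to 5.71). Other pathway genes under 200 UMIs, named likewise, also had intervals above 1. Among them were *Bmp8a* (2.96, 1.62 to 5.68), *Grem1* (2.52, 1.29 to 5.15), *Inhba* (1.965, 1.26 to 3.11) and *Bmp7* (1.81, 1.21 to 2.73). No such gene had an interval below 1. With at least 50 UMIs per gene, 11.5% of 15104 genes were at or above 1.5-fold and 8.18% at or below its inverse. None of the 70 genes was without a UMI in ES cells of both libraries.

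The second comparison set the feeder fibroblasts against the ES cells of the same library. *Id1* and *Id3* were about 10-fold higher in fibroblasts of both libraries, and *Id2* was higher in those of the wild type. *Id3* reached 658 CPM (583.7 to 739) in the fibroblasts of the wild-type library and 582 CPM (451 to 739) in those of the knockout library. These were 10.7-fold (9.26 to 12.3) and 9.66-fold (7.38 to 12.5) over ES cells. *Id1* was at 171 and 208.5 CPM, 11.9-fold (8.88 to 15.7) and 12.2-fold (7.57 to 18.8). *Id2* was at 64.9 CPM in wild-type fibroblasts, 14.0-fold (8.502 to 22.6), and had 2 UMIs in knockout fibroblasts, a ratio of 8.44 (0.953 to 35.0). For *Id2* in the wild type the ratio fell to 5.07 when fibroblasts had to reach 1% of UMIs on the collagens, which kept 31 of the 48.

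These few cells held much of the *Id* signal of the wild-type library. The 48 fibroblasts among 1856 cells carried 31.4% of its *Id1*, 35% of its *Id2* and 29.1% of its *Id3* UMIs, and the 23 of the knockout library 13.2%, 9.52% and 10.8%. With fibroblasts left among the ES cells, knockout over wild-type *Id3* was 0.796, against 0.978 with them set apart. *Id3* was present in 38 of 48 fibroblasts beside wild-type cells and in 10 of 23 beside knockout cells, 28 and 7 of them with 3 or more UMIs, against 46 of 1808 and 32 of 1599 ES cells.

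*Tdgf1* was lower in fibroblasts than in ES cells, with ratios of 0.0686 (0.0313 to 0.130) and 0.199 (0.0799 to 0.410). *Nodal* had ratios of 0.0941 (0.0114 to 0.342) and 0.355 (0.0729 to 1.04), the latter from 3 UMIs and with an interval that held 1. *Bmp4* did not separate the cell types, with 60.2 and 60.8 CPM in fibroblasts and ratios of 1.16 (0.754 to 1.72) and 1.10 (0.439 to 2.28). *Smad7* was 2.07-fold higher in wild-type fibroblasts (90 UMIs, 1.65 to 2.57) and at 0.886 in knockout fibroblasts (9 UMIs, 0.404 to 1.69). In the wild type 6 of the 9 genes reached 200 UMIs, of which 3 were at or above 2-fold (*Smad7*, *Id1*, *Id3*) and 2 at or below its inverse, against 12.5% and 31.7% of 7469 genes. *Id1* reached 200 UMIs only with its fibroblast UMIs, the group where it was high, so its place in this count was set by the filter. In the knockout library 5 did, of which 1 (*Id3*) was above and 2 below, against 9.78% and 32.7% of 6720 genes.

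**Figure D3:**
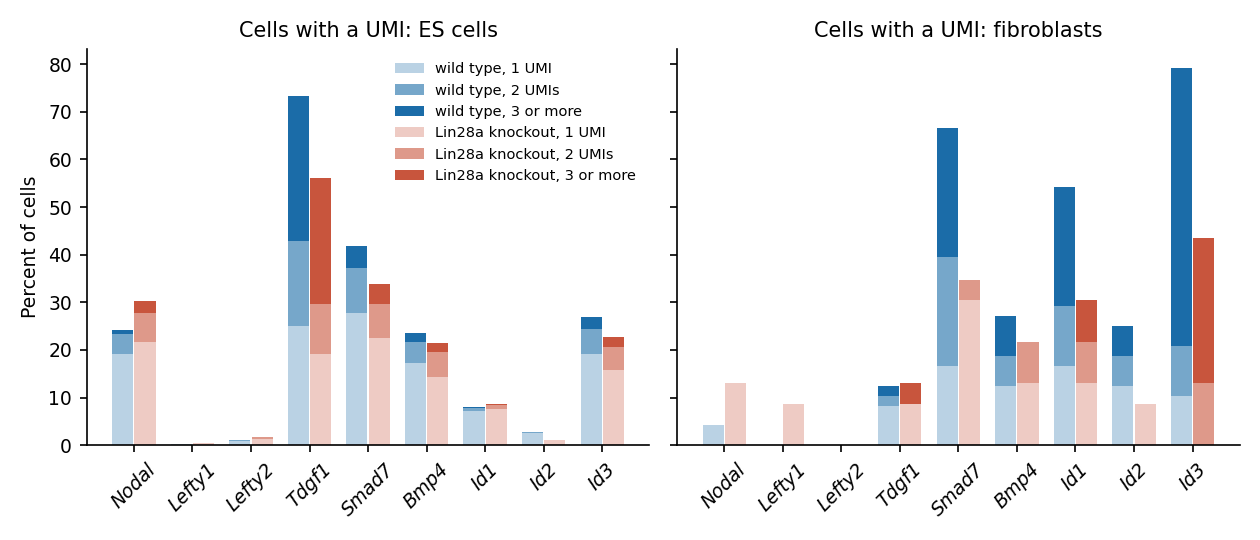
Percent of ES cells (left) and feeder fibroblasts (right) with 1, 2 and 3 or more UMIs of each gene (light to dark), in the wild-type (blue) and *Lin28a* knockout (red) library, with 1808, 1599, 48 and 23 cells. *Tdgf1* is in most ES cells, and *Id3* is in 38 of 48 wild-type fibroblasts. Depth differs between the 4 groups, so bars do not compare levels.

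The levels were also compared between ES cells of different RP share, a comparison chosen after its values were seen. From cells of 5 to 10% RP to cells of 15% or more, wild-type *Nodal* went from 37.9 to 69.7 CPM and knockout *Nodal* from 66.2 to 87.2 CPM, and *Id3* from 48.8 to 86.9 CPM and from 58.4 to 70.5 CPM. The ratios were 1.84 (1.46 to 2.31) and 1.32 (1.08 to 1.61) for *Nodal*, and 1.78 (1.45 to 2.18) and 1.21 (0.967 to 1.503) for *Id3*. *Tdgf1* went the other way, from 342 to 178.5 CPM and from 376 to 175 CPM, ratios of 0.521 (0.461 to 0.588) and 0.466 (0.413 to 0.525). *Smad7* did as well, from 118 to 51.4 CPM and from 104 to 53.7 CPM, ratios of 0.436 (0.345 to 0.545) and 0.515 (0.412 to 0.639). The intervals of *Bmp4* held 1, at 1.08 (0.848 to 1.36) and 1.07 (0.846 to 1.36).

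Of the 5 genes with at least 200 UMIs in these cells, 2 wild-type ratios were at or above 1.5-fold and 2 at or below its inverse, against 0 and 2 of the knockout ratios. Differences of this size were common among the genes that are not RP genes. In the wild type 23.1% of 5847 genes were at or above 1.5-fold and 45.1% at or below its inverse, and in the knockout library 26.5% and 41.8% of 4558 genes. The median gene had ratios of 0.763 and 0.853, and 29.5% to 35.5% of genes were at or below *Tdgf1* and *Smad7*. Of the wild-type ratios 12.9% were at or above that of *Nodal* and 14.5% that of *Id3*, and of the knockout ratios 33.6% and 37.9%. The cells of 15% RP or more also had a median mitochondrial share of 0.174% and 0.262%, against 1.70% and 2.48% at 5 to 10%, with medians of 7469 and 5818.5 UMIs against 6317.5 and 7754, and the part of these in the result was not tested.

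**Figure D4:**
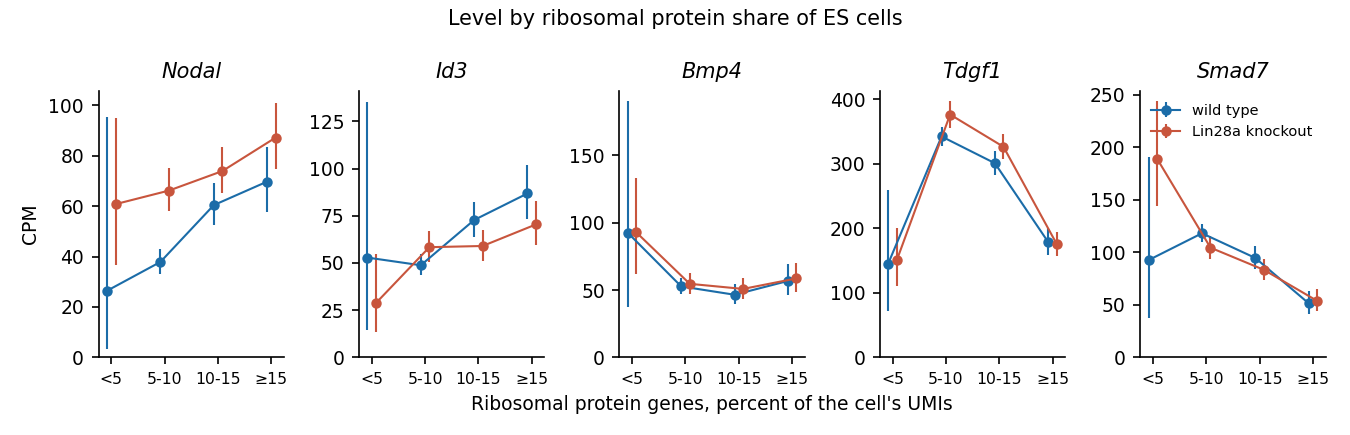
Level in CPM of 5 genes in ES cells in 4 bins of RP share, for the wild-type (blue) and *Lin28a* knockout (red) library, with 95% Poisson intervals. From cells of 5 to 10% to cells of 15% or more *Tdgf1* and *Smad7* stand lower in both libraries and *Nodal* and *Id3* higher in the wild type, while the intervals of knockout *Nodal* and *Id3* and of *Bmp4* overlap. The cells under 5% number 83 and 226.

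*Bmp4* and *Id3* were the most unevenly spread of the 5 genes over ES cells of at least 2000 UMIs (1600 wild-type and 1097 knockout). The extra squared coefficient of variation, the variance between cells beyond that of counting over the squared mean, was 0.699 and 0.948 for *Bmp4*, above 93.1% and 96.2% of all genes with at least 200 UMIs, whose medians were 0.210 and 0.214. For *Id3* it was 0.812 and 3.24. The value of the knockout library rested on 1 cell and was 0.716 without it. That cell held 31 *Id3* UMIs among 18430, and the next highest held 6. It had 1 *Pou5f1* and 0 *Tdgf1* UMIs, 0.244% of its UMIs on the 3 collagens, just under the limit for a fibroblast, and 0.505% on the 12 fibroblast markers, against a median of 0.0659% in ES cells. Of its 88 UMIs of pluripotency factors 85 were *Klf4*, which fibroblasts carry too, and Scrublet did not mark it as a doublet. Without it, an alternative chosen after the data were seen, the knockout over wild-type ratio of *Id3* was 0.925. *Nodal* was at 0.339 and 0.162, above 69.9% and 39.4% of genes, and *Tdgf1* and *Smad7* were above 39.2% to 59.4%.

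The next comparison asked whether the genes shared cells. At 2000 UMIs per cell, the share of cells with both genes of a pair was divided by the product of the 2 single shares, so that 1 means independent detection. Over the 10 pairs of *Nodal*, *Tdgf1*, *Smad7*, *Bmp4* and *Id3* the wild-type values lay from 0.943 to 1.21 (median 1.04) and the knockout values from 0.992 to 1.14 (median 1.05). The highest of the 10 in both was the pair of the ligand *Bmp4* and its target *Id3*, at 1.21 (1.03 to 1.41) and 1.14 (0.959 to 1.35). In the wild type it was the 1 pair of the 10 whose interval left out 1. Outside the 10, *Bmp4* and its other target *Id1* were at 1.20 (0.8815 to 1.61) and 1.25 (0.932 to 1.645), with intervals that held 1. The order was not stable in the knockout library: with cells of at least 1000 UMIs taken at 1000, *Bmp4* and *Id3* were at 0.995, and *Smad7* and *Bmp4* were highest at 1.23. Before thinning, *Id3* was in 156 of 417 wild-type cells with *Bmp4* (37.4%, 32.8 to 42.3) and in 27.6% (25.03 to 30.2) of those without it, and in 136 of 313 knockout cells with it (43.5%, 37.9 to 49.1) and 26.2% (23.1 to 29.4) without. Cells with *Bmp4* were also the deeper ones, with medians of 7494 against 6155 UMIs and of 9331 against 6715.5 UMIs. *Nodal* and its co-receptor *Tdgf1* were at 0.969 (0.871 to 1.08) and 1.02 (0.919 to 1.13), and *Nodal* and *Smad7* at 0.943 (0.818 to 1.08) and 1.02 (0.893 to 1.16).

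The *Lefty* genes were in too few cells for a pattern. Of the wild-type cells with *Nodal*, 7 of 432 had *Lefty2* (1.62%, 0.654 to 3.31), against 1.11% (0.594 to 1.90) of those without. In the knockout library 18 of 451 had it (3.99%, 2.38 to 6.24), against 1.55% (0.745 to 2.83) without. At equal depth the ratio to the product was 1.28 (0.513 to 2.63) and 1.25 (0.738 to 1.97). *Tdgf1* was in 15 of the 20 wild-type cells with *Lefty2* (75%, 50.9 to 91.3) and in 79.9% of those without, and in all 28 of the knockout cells with *Lefty2* and 74.5% of those without. The median depth of these 28 was 10644.5 UMIs, against 7225 in the others. *Lefty1* and *Lefty2* were together in 0 wild-type cells and 1 knockout cell.

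**Figure D5:**
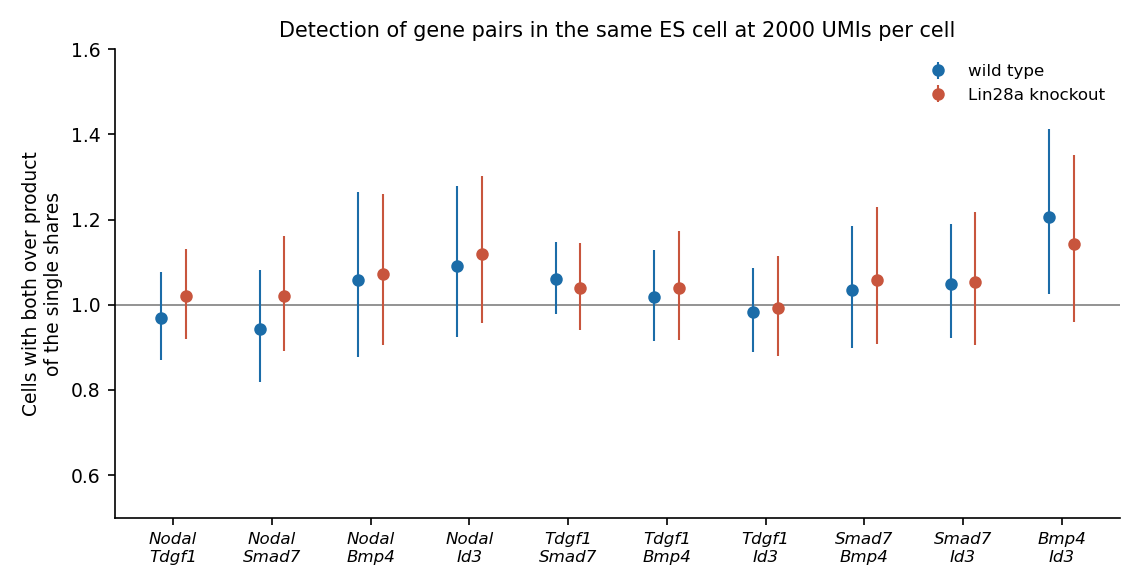
Share of ES cells with both genes of a pair over the product of the 2 single shares, with each cell of at least 2000 UMIs taken at 2000 UMIs, for the 10 pairs of 5 genes in the wild-type (blue) and *Lin28a* knockout (red) library. Bars are 95% intervals of counting error on the cells with both. All values lie between 0.943 and 1.21, with *Bmp4* and *Id3* highest in both libraries at this depth, though not in the knockout library at 1000 UMIs per cell (0.995).

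Likeness was measured as Pearson's r over cells between the residuals of counts given depth, for each of these 5 genes with 6266 genes of at least 200 UMIs in each library. The cells share library, depth and base composition, and in counts this sparse the values, at most 0.342 for the genes other than *Id3*, only describe the cells. *Nodal* was most like *Gm7432* (0.115 and 0.112 in the wild-type and knockout library), the RP gene *Rplp2* (0.140 and 0.107), *Atf4*, a factor of the stress response (0.107 and 0.114), *Gm12366* and *Rps2-ps13*. It was above 0 with 81 and 78 of 84 RP genes, and 11.7% and 27.3% of 6183 other genes were so with as many. *Tdgf1* was below 0 with 80 and 79 of the 84, as most genes were, with medians of 66 and 73 over the other genes. It was most like *Npm1*, a nucleolar chaperone (0.197 and 0.283), *Ptges3*, *Hnrnpf*, *Mcl1* and *Cnbp*. *Smad7* was most like *Npm1* too (0.146 and 0.162), with *Pabpc1*, *mt-Nd1*, *mt-Rnr2* and the naive factor *Zfp42* (0.135 and 0.178), and was below 0 with 80 and 81 RP genes. As many or more were below 0 for 23.9% to 40.5% of the other genes, so this does not set *Tdgf1* or *Smad7* apart.

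Over all 6266 genes the values of the 2 libraries were alike for *Tdgf1* (r of 0.837 across genes) and *Smad7* (0.733), less so for *Nodal* (0.478), and hardly for *Id3* (0.186) and *Bmp4* (0.0208), and genes are not independent replicates. With the 10 pluripotency factors measured here *Tdgf1* had no common sign. It was above 0 in both libraries with 6, the highest being *Nanog* (0.132 and 0.213) and *Zfp42* (0.120 and 0.203), below 0 in both with 3, *Dppa5a* (-0.177 and -0.213), *Pou5f1* (-0.124 and -0.0601) and *Sox2* (-0.00169 and -0.00287), and of either sign with *Klf2* (-0.0450 and 0.0849). *Bmp4* had no r above 0.103 (wild type) or 0.122 (knockout), and its 5 most like were *Mkrn1* (0.0842 and 0.0940), *Spint2*, *Cit*, *Trap1a* and *Me1*. *Id3* was most like *Ftl1* (0.0995 and 0.237), *Ftl1-ps1*, *Sh3bp4*, *Ccn1* and *Gm15590*. The knockout values of *Id3* include the cell of 31 *Id3* UMIs. Without it the 5 genes highest by the knockout value alone were *Siva1*, *Dusp14*, *Rps21*, *Bms1* and *Gm14586*, none of them among those named. Its highest value in the knockout library, 0.453, was 0.133 without the cell of 31 *Id3* UMIs. Between the 5 genes the values ran from -0.0415 (*Nodal* and *Tdgf1*, wild type) to 0.0965 (*Tdgf1* and *Smad7*, wild type), and *Bmp4* and *Id3* were at 0.0857 and 0.00646.

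Barcodes under 500 UMIs, 2472 wild-type and 4423 knockout ones, were not taken as cells, and their counts show what stands outside the cells that were kept. Neither the collagen nor the mitochondrial limit was applied to them, so they are set beside ES cells that passed both. *Tdgf1* was at 312 and 334 CPM in them, *Nodal* at 45.6 and 55.0 CPM, *Bmp4* at 47.8 and 59.4 CPM and *Smad7* at 77.4 and 71.3 CPM, and all 8 intervals held the ES cell level of the same library, that of knockout *Nodal* (38.7 to 75.8) only near its upper end. *Id3* was at 70.6 (48.0 to 100.2) and 41.6 CPM (27.6 to 60.1), the latter just short of the 60.3 CPM of the ES cells. *Lefty1* was at 0 in both, and *Lefty2* had 3 UMIs in each, 6.83 (1.41 to 19.97) and 4.46 CPM (0.919 to 13.0), no lower than in the ES cells and with intervals that held their levels.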

How the data were processed

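The authors processed the inDrop reads with a published pipeline and deposited, for each of 2 libraries, a matrix of unnormalized UMI counts with genes against barcodes. The submitters' processing notes name mm10 and Seurat 2.3.4, and the aligner is not given in the sources used here. Identifiers were named through the GENCODE M21 gene table of GRCm38 (54079 of 54146 matched). UMIs the files count as ambiguous were at most 1 per library for each of the 9 genes.

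The limits of 500 UMIs and 20% mitochondrial UMIs follow the study's methods. Levels are CPM of the UMIs pooled within each cell group (Poisson intervals). Shares have Clopper-Pearson intervals and ratios the exact conditional interval of 2 counts, all at 95%, and 3 counts per group set the limit for a count of 0. Libraries were the only units, 1 per group, so no test was made. A gene was compared between libraries with at least 200 UMIs over both, and called past 1.5-fold, or past 2-fold between fibroblasts and ES cells. RP share was taken over 86 RP genes. Shares at equal depth came from the hypergeometric distribution, and residuals used a negative binomial dispersion of 0.01. Doublets by Scrublet, 25 (wild type) and 15 (knockout), were kept. The computations were tested on simulated data. The genes, the 7 pathway lists and the 6 marker lists were chosen with earlier results of these data known. Named were the 9 genes, pathway genes of at least 200 UMIs past 1.5-fold, the 3 ligands, 3 receptors or Smads and 3 inhibitors or targets with most UMIs, and the 5 genes most like each of 5 genes, by the lower r of both libraries, with r also read for the marker genes. The work used scanpy 1.11.5, scipy 1.17.1, numpy 2.4.6, pandas 2.3.3 and matplotlib 3.10.9 under Python 3.11.15.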

Additional observations from a re-analysis of the deposited data

Results flagged for a closer look

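*Smad7* stood on opposite sides of the ES cell level in the fibroblasts of the 2 libraries, with a wild-type ratio of fibroblasts over ES cells of 2.07 (1.65 to 2.57) and a knockout ratio of 0.886 (0.404 to 1.69). It is listed because the libraries point in opposite directions, and no difference in genotype between their feeders is stated. The difference was not tested, the knockout value rests on 9 UMIs from 23 fibroblasts and its interval holds 1. The knockout fibroblasts had a median of 2295 UMIs against 8131.5 in the wild type, and the part of this in the result was not tested. Under the 5 alternatives the wild-type ratio kept to 2.08 to 2.22 and the knockout ratio to 0.773 to 0.909.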

How the results depend on the processing

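Of 153 ratios of single genes between the libraries under 17 other settings, 1 of them added after the data were seen, 149 stayed within the interval of the reported value. This count is a weak check, because most settings reuse most of the same UMIs. The wide intervals of *Lefty1* (1.04 to 22.9), *Lefty2* (1.09 to 3.19) and *Id2* (0.248 to 0.764) also left their ratios much room. The minimum of 50 UMIs per gene changes only which genes are counted, so its ratios for the 9 genes could not move. *Nodal* ranged from 1.43 to 1.54, which left it on either side of the 1.5-fold limit: 1 gene was then at or above it, *Nodal*, with a minimum of 5000 UMIs, a fibroblast limit of 1%, fibroblasts not set apart, a denominator without mitochondrial and RP genes, and the mean over cells of each cell's CPM. With a minimum of 50 UMIs per gene 8 of the 9 genes were compared, and 1 was above (*Lefty2*) and 1 below (*Id2*), both of which reach 50 only through the library where they are high, while over all 15104 genes then compared 1733 (11.5%) were above and 1235 (8.18%) below. The mean over cells gave 1021 genes above and 1071 below (10.6% and 11.1% of 9643) and moved *Tdgf1* to 0.813, *Bmp4* to 1.26 and *Lefty2* from 1.85 to 1.14, the last within its interval. A minimum of 5000 UMIs moved *Tdgf1* to 1.07, and fibroblasts not set apart moved *Id3* to 0.796. Between fibroblasts and ES cells 70 of 75 values stayed within their interval. With a fibroblast limit of 1%, *Tdgf1* in the wild type and *Nodal* in the knockout library were at 0, *Id2* in the wild type was at 5.07 and *Id3* in the knockout library at 12.6, and with a limit of 0.1% *Tdgf1* in the wild type was at 0.155. Of 88 values of co-detection 87 stayed within theirs, where medians over the pairs were judged by the range of the pairs. The exception was wild-type *Tdgf1* and *Id3*, which went from 0.984 to 0.889 with fibroblasts kept. Knockout *Bmp4* and *Id3* went from 1.14 to 0.995 at 1000 UMIs per cell, which is below 1 but within the interval. Within bins of depth and RP share, a view added after the data were seen, 38 of 47 ratios had an interval that held the overall value. The cause of these moves was not tested, beyond the number of fibroblasts, which the collagen limit sets at 31 and 16 or at 67 and 48. No paired analysis was possible because there is 1 library per group. Depth limits *Lefty1*, *Lefty2* and *Id2* most, with 3 to 52 UMIs in the ES cells of a library.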
